A study of Danio rerio with 18 samples.

Results

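The 9 genes described here are bipolar cell genes of the zebrafish retina, read in libraries of cells that had been sorted as retinal ganglion cells. They were taken by name from a fixed list (vsx1, grm6a, grm6b, prkcaa, cabp5a, cabp5b, cabp2a, trpm1a and gnb3a), and all 9 names were present among the 25281 genes of the deposited tables. Retinal ganglion cells send their axons to the brain through the optic nerve. The study compared them between eyes whose optic nerve had been cut and uninjured eyes of the other side, with attention to JAK/STAT signalling and innate immunity per its title. Adult isl2b:GFP fish of 3 to 5 months were used, a line in which green fluorescent protein marks isl2b-positive cells. Each library was made from 1000 GFP-positive cells of dissociated eyes.

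The injured groups came from isl2b:GFP eyes after optic nerve transection (ONT+), with tissue taken 6, 12 or 24 hours later (hpi, hours post injury). The control groups came from uninjured contralateral eyes (ONT-) of the same line at the same times. All groups shared the reporter line, the sort and the library kits, and every group had 3 libraries, 18 in all. The labels do not say whether the libraries of a group came from separate fish, so p-values measure the spread between these libraries, which may be technical. The labels put surgery in 5 replicates per time point, and 3 per group were analysed here.

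Bipolar cells are the interneurons that carry signals from rods and cones to ganglion and amacrine cells. ON bipolar cells sense glutamate with the metabotropic receptor mGluR6, which acts through a G protein on the cation channel TRPM1, so that these cells depolarise in light. OFF bipolar cells use ionotropic glutamate receptors instead. Calcium-binding proteins of the CaBP family and protein kinase C alpha are long-standing labels of bipolar cell types.

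The libraries held RNA of several retinal cell types beside that of ganglion cells. Total counts ran from 15490375 to 28329194 per library. The summed level of 21 ganglion cell markers was 845 to 3569 CPM (counts scaled to library size with TMM factors), against 4435 to 9577 CPM for the 9 bipolar cell genes and 108500 to 296100 CPM for 17 rod genes. These sums depend on the genes listed and on gene length, so they do not give the share of RNA from each cell type. The rod opsin gene rho was the gene of highest RPKM (the authors' read count scaled by gene length and library size) in all 18 libraries. The reporter's own gene, isl2b, ranged from 4.21 to 120.7 RPKM, a 28.7-fold span, and at 24 hpi it was lower in every injured library than in every control library. In pooled cells, fewer cells of a type and less RNA per cell cannot be told apart. The sample-sheet numbers in the labels repeat, so the libraries fall into a set of 4 and a set of 14. The column headers mark the reads of injured library 1 of 6 hpi, and of no other library, as trimmed. The set of 4 held controls 2 and 3 of 6 hpi, injured library 3 of 24 hpi and control library 1 of 24 hpi.

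The 9 genes spanned more than 3 orders of magnitude in level and kept nearly the same order in every library. On the RPKM scale, cabp5a stood first with a lowest value of 1416, a median of 2147 and a highest value of 3314 over 18 libraries, and it ranked between place 9 and place 22 among all genes of a library. This gene encodes a calmodulin-like calcium-binding protein that in mouse is found in rod bipolar cells and some cone bipolar cells. Its paralog cabp5b followed with a median of 596 RPKM, and the bipolar homeobox gene vsx1 with 296 RPKM. The related calcium-binding protein gene cabp2a had a median of 234 RPKM. The lower members were gnb3a at 37.5 RPKM, prkcaa at 15.5 RPKM, trpm1a at 6.68 RPKM, grm6b at 2.66 RPKM and grm6a at 0.609 RPKM. For 7 of the 8 neighbouring pairs in that order the higher gene was above the lower one in 18 of 18 libraries. The exception was vsx1 over cabp2a, which held in 16 of 18 libraries.

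**Figure D1:**
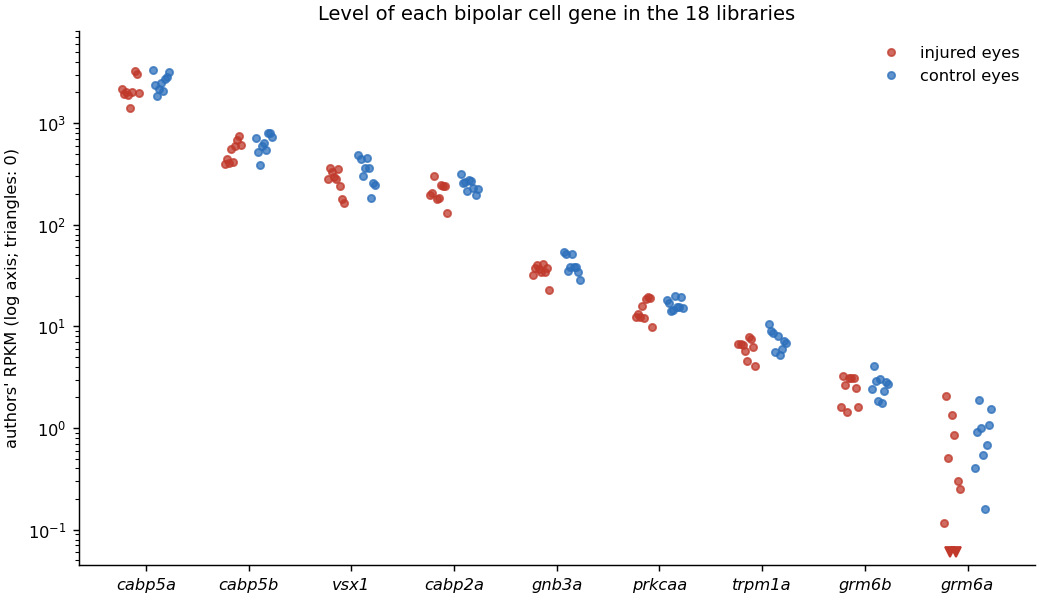
The authors' RPKM on a log axis for each of the 9 genes in the 18 libraries, injured eyes left and control eyes right, 1 point per library. The genes run in order of their median, from 2147 RPKM for cabp5a to 0.609 RPKM for grm6a, and triangles mark the 2 injured libraries in which grm6a was at 0.

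Apart from grm6a, the members varied less between libraries than most genes, while the 7 more abundant ones did not vary less than most genes of like level. The ratio of the highest to the lowest RPKM over 18 libraries lay between 2.00 for prkcaa and 2.96 for vsx1 in 8 of the 9 genes. Their SD of log2 CPM within groups was 0.228 for cabp5b at the low end and 0.425 for grm6b at the high end, against 1.42 for isl2b and a median of 0.481 over all 17527 genes tested. Among the 4284 genes with an average log2 CPM of at least 5 the median SD was 0.219, and none of the 7 members in that class lay below it. The members' summed counts made up 0.461% to 0.995% of a library's counts, and cabp5a alone gave 60.7% to 73.5% of them.

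The transcription factor gene vsx1 (ENSDARG00000056292, chromosome 17, 21063403 to 21066105, minus strand, build GRCz11) encodes a homeodomain protein of bipolar cells. At 6 hpi it had 618, 651 and 713 CPM in injured eyes, against 908, 806 and 612 CPM in control eyes. At 12 hpi it had 619, 547 and 631 CPM in injured eyes, against 678, 924 and 684 CPM in control eyes. At 24 hpi it had 527, 398 and 355 CPM in injured eyes, against 385, 537 and 517 CPM in control eyes. The groups overlapped at 6 and 24 hpi, while at 12 hpi every injured library was below every control library. The mean injury effect over the 3 times was a log2 fold change of -0.25 (SE 0.11), with an unadjusted p of 0.0301 and an adjusted p of 0.342 by edgeR's quasi-likelihood test. That was the only member with an unadjusted p under 0.05 for the mean effect.

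The glutamate receptor genes grm6a (ENSDARG00000017742, chromosome 8, 8532407 to 8624008, plus strand) and grm6b (ENSDARG00000025671, chromosome 11, 25634041 to 25679721, plus strand) encode mGluR6, the receptor with which ON bipolar cells sense photoreceptor glutamate. Both were near the bottom of the range. At 6 hpi grm6a had 0.431, 6.5 and 1.86 CPM in injured eyes, against 1.30, 2.83 and 6.66 CPM in control eyes. At 12 hpi it had 0, 4.48 and 2.68 CPM in injured eyes, against 3.19, 1.91 and 0.529 CPM in control eyes. At 24 hpi it had 0, 1.16 and 0.942 CPM in injured eyes, against 2.47, 3.90 and 5.55 CPM in control eyes. Only at 24 hpi did the groups not overlap, with a log2 fold change of -2.49 (SE 1.35, adjusted p = 0.644 by edgeR). These values rest on 0 to 203 counts per library. A count of 0 allows up to 3 counts, or 0.108 and 0.118 CPM before scaling in the 2 libraries at 0, which covers counting error only. The reporter gene isl2b was also lower in every injured library at 24 hpi, at 39.6, 42.2 and 101 CPM in injured eyes, against 291, 282 and 224 CPM in control eyes. With group means removed, grm6a and isl2b had a Pearson r of 0.692 over the 18 libraries, and grm6a and the mean of the other 8 members one of -0.296. The part of the ganglion cell share in the grm6a values was not tested. The second receptor gene, grm6b, had 8.54 to 19.2 CPM in injured eyes and 9.40 to 20.4 CPM in control eyes, with overlap at each time and a mean injury effect of -0.03 on the log2 scale (SE 0.19).

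The channel gene trpm1a (ENSDARG00000011259, chromosome 7, 29312376 to 29341364, minus strand) encodes the cation channel at the end of the ON bipolar cascade. At 6 hpi it had 56.3, 47.0 and 55.2 CPM in injured eyes, against 77.8, 63.7 and 67.7 CPM in control eyes. The values of 12 hpi were 47.5, 34.6 and 55.7 CPM in injured eyes, against 40.5, 64.5 and 39.2 CPM in control eyes. Those of 24 hpi were 64.0, 54.2 and 34.2 CPM in injured eyes, against 49.4, 59.3 and 55.2 CPM in control eyes. The injured libraries lay below all controls at 6 hpi and among them later. The difference at 6 hpi was a log2 fold change of -0.40 (SE 0.23, adjusted p = 0.614 by edgeR). Its partner in the cascade, gnb3a (ENSDARG00000004358, chromosome 16, 12022543 to 12049762, plus strand), encodes a G protein beta subunit found in ON bipolar cells and cones. It had 60.8 to 105 CPM in injured eyes and 73.4 to 130 CPM in control eyes, and the groups overlapped at each time.

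The kinase gene prkcaa (ENSDARG00000115657, chromosome 6, 21227621 to 21394150, plus strand) encodes protein kinase C alpha, the usual antibody label of ON bipolar cells in fish and of rod bipolar cells in mammals. At 6 hpi it had 104, 92.2 and 102 CPM in injured eyes, against 132, 117 and 111 CPM in control eyes, with no overlap. The 12 hpi values were 130, 90.0 and 128 CPM in injured eyes, against 105, 157 and 114 CPM in control eyes. Those at 24 hpi were 167, 165 and 83.1 CPM in injured eyes, against 127, 157 and 122 CPM in control eyes. The groups overlapped at both later times, where injured library 3 of 24 hpi was the lowest of all 18 for this gene. The log2 fold change at 6 hpi was -0.28 (SE 0.23, adjusted p = 0.761 by edgeR).

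The calcium-binding protein genes were cabp5a (ENSDARG00000002576, chromosome 12, 3848109 to 3861759, plus strand), cabp5b (ENSDARG00000028485, chromosome 3, 15296824 to 15317392, plus strand) and cabp2a (ENSDARG00000052016, chromosome 1, 44127292 to 44141442, plus strand). Their proteins bind calcium through EF hands and modulate calcium channels. At 6 hpi cabp5a averaged 4078 ± 577 CPM in injured eyes and 4633 ± 1277 CPM in control eyes (n = 3 libraries each, SD). The means of 12 hpi were 3382 ± 634 CPM in injured eyes and 4253 ± 638 CPM in control eyes. Those of 24 hpi were 5953 ± 1570 CPM in injured eyes and 5983 ± 494 CPM in control eyes. For cabp5a, cabp5b and cabp2a the injured mean was below the control mean at each time, and the libraries of the 2 groups overlapped at each time. The mean injury effects were -0.17 (SE 0.12) for cabp5a, -0.19 (SE 0.10) for cabp5b and -0.16 (SE 0.13) for cabp2a on the log2 scale.

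Across the 9 genes, no injury effect was called. By edgeR's quasi-likelihood test at an adjusted p under 0.05, 0 of 9 members were called at 6, 12 and 24 hpi and for the mean of the 3 times, where the share of all 17527 genes called was 0% in each comparison. At an unadjusted p under 0.05 the members numbered 0 at each time and 1 for the mean effect, against 9.28%, 3.64%, 8.48% and 12.6% of all genes. DESeq2 also called 0 of 9 members at each time, where it called 0.440%, 0.0377% and 1.17% of the genes it gave an adjusted p at 6, 12 and 24 hpi. For the mean effect it called 0 of the 8 members with an adjusted p (grm6a had none) and 2.16% of all such genes. A joint test of whether the injury effect differed between times called 0 of 9 members and 0% of all genes, with 0 members and 5.00% of all genes at an unadjusted p under 0.05, and DESeq2 called 0 members and 0.0830% of genes. The authors' deposited table listed no member with an adjusted p under 0.05, and its lowest value for a member was 0.112 for grm6a at 24 hpi. Over all genes with an adjusted p, the authors' deposited table held 0.603% under 0.05 at 6 hpi, 0.109% at 12 hpi and 2.41% at 24 hpi.

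All 9 point estimates of the mean injury effect were below 0, where 50.5% of all genes were. They ran from -0.81 for grm6a to -0.03 for grm6b with a median of -0.17, and the median over all genes was -0.00425. Within the set of 14 libraries 8 of 9 were below 0, and grm6b was at 0.15. Without the library of trimmed reads 8 of 9 were below 0 for the mean effect (not grm6b) and 8 of 9 at 6 hpi (not grm6a), with 0 called. At 6 hpi 9 of 9 were below 0 (51.8% of all genes), at 12 hpi 7 of 9 (49.7%) and at 24 hpi 8 of 9 (48.3%). Within the set of 14, grm6b, cabp5a, cabp2a, trpm1a and gnb3a turned above 0 at 24 hpi (0.11, 0.15, 0.27, 0.0483 and 0.27). There vsx1, cabp5b and grm6a stayed below 0. At 6 hpi grm6a (1.18) and grm6b (0.15) turned above 0 in that set, and no other member did. The set lacks 4 libraries, among them injured library 3 of 24 hpi, the lowest of all 18 in CPM for vsx1, cabp2a, trpm1a, gnb3a and prkcaa. The group mean was lower in injured eyes at 3 of 3 times for 6 members, compared with 16.7% of all genes. Injured and control libraries did not overlap, with injured lower, for prkcaa and trpm1a at 6 hpi (7.13% of all genes), for vsx1 at 12 hpi (4.26%) and for grm6a at 24 hpi (8.40%). No member was higher in injured eyes without overlap, where 6.13%, 4.14% and 7.85% of all genes were at 6, 12 and 24 hpi. The members come from the same libraries and move together, so these counts are not 9 separate observations.

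**Figure D2:**
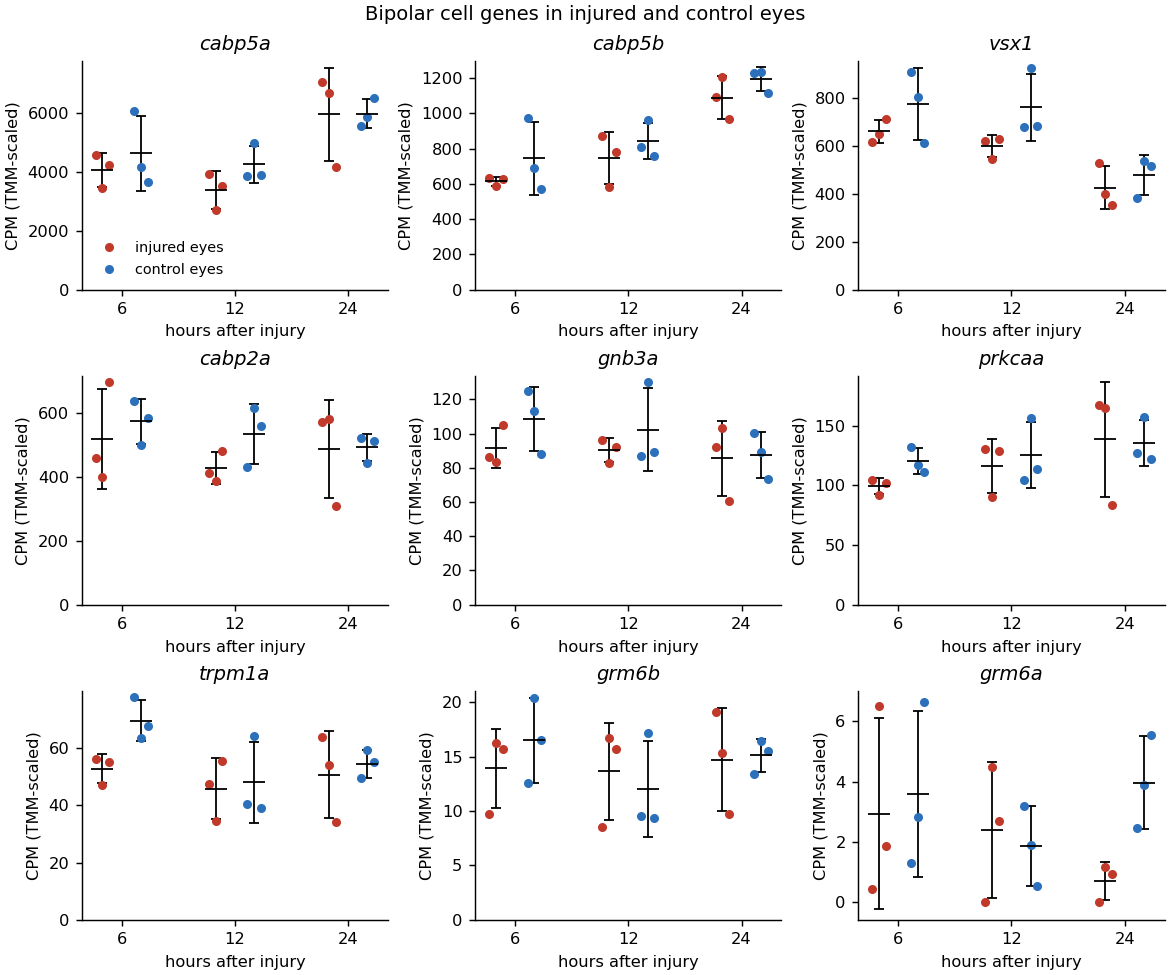
CPM of each gene by time after injury, injured eyes left and control eyes right at each time. Points are libraries, and black bars give the mean and SD of 3 libraries. The injured and control points overlap in most panels. In both kinds of eye the mean of vsx1 is lower, and those of cabp5a and cabp5b are higher, at 24 hpi than earlier.

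**Figure D3:**
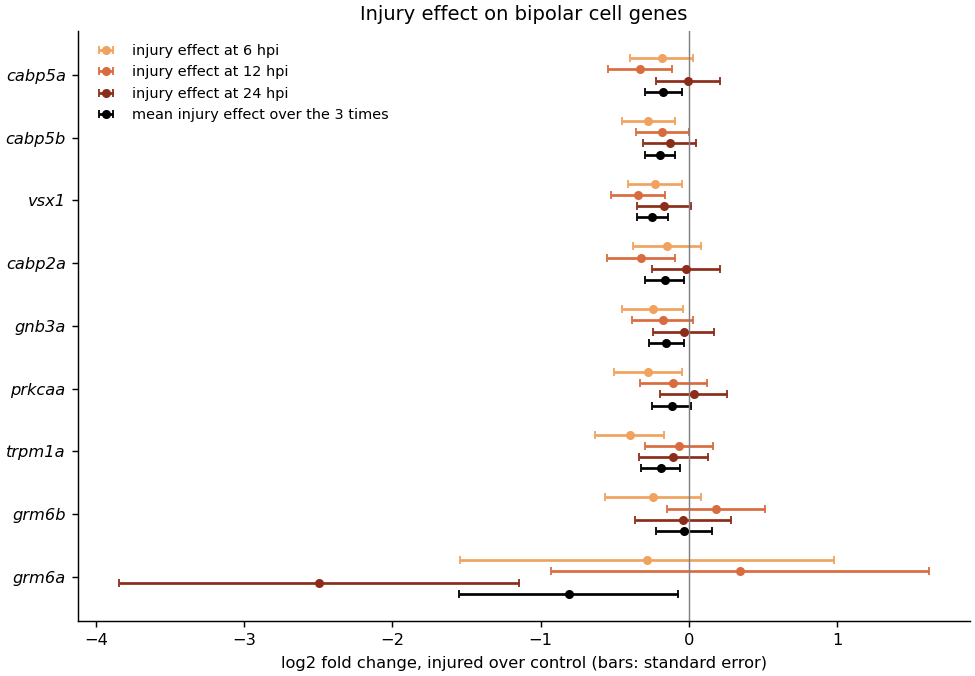
Log2 fold change of injured over control eyes for each gene at 6, 12 and 24 hpi and for the mean of the 3 times. Standard errors were derived from edgeR's F statistic. The 9 mean effects lie left of 0, from -0.81 to -0.03, and none of the 36 estimates drawn was called.

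The summed level of the 9 genes had a lower mean in injured eyes at each time. It was 6134 ± 699 CPM in injured eyes and 7045 ± 1692 CPM in control eyes at 6 hpi (n = 3 libraries each, SD). The 12 hpi sum was 5422 ± 879 CPM in injured eyes and 6682 ± 1020 CPM in control eyes. The 24 hpi sum was 8247 ± 1978 CPM in injured eyes and 8447 ± 478 CPM in control eyes. The mean of the 3 differences was -790 CPM, and each difference was smaller than the sum of the 2 SDs. The mean difference was -412 CPM without injured library 3 of 24 hpi, -473 CPM without control library 1 of 6 hpi and -1416 CPM on library totals without TMM factors. Rod RNA was higher in every injured library than in every control library at 24 hpi, and none of the 17 rod genes was at 0 throughout a group. They summed to 140000 to 267700 CPM in injured eyes and 108500 to 214600 CPM in control eyes at 6 hpi, to 147000 to 270500 CPM in injured eyes and 147500 to 195500 CPM in control eyes at 12 hpi, and to 269400 to 296100 CPM in injured eyes and 224900 to 233900 CPM in control eyes at 24 hpi. The part of the rod RNA in the members' differences was not tested.

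Some members differed between 24 hpi and the earlier times in both kinds of eye. The gene vsx1 had 355 to 537 CPM in the 6 libraries of 24 hpi, against 547 to 924 CPM in the 12 libraries of 6 and 12 hpi, with no overlap. Over all genes, 1.04% were lower at 24 hpi without overlap in this way. In the opposite direction, cabp5b had 968 to 1235 CPM at 24 hpi, against 571 to 976 CPM at 6 and 12 hpi. For cabp5a the values were 4153 to 7041 CPM at 24 hpi, against 2691 to 6078 CPM at 6 and 12 hpi. Both overlapped, and no member was higher at 24 hpi without overlap, where 0.873% of all genes were.

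This comparison of 24 hpi with both earlier times was chosen after the values were seen, and injured and control eyes entered it with equal weight. It treated injured and control libraries of a time as independent. If they came from the same fish, which the labels do not say, its p-values may be too small, here and for the wider lists below. In this comparison edgeR called 3 of 9 members, where 8.79% of all genes were called. The estimates of 5 of 9 members lay below 0, and so did 52.0% of all genes. At 24 hpi vsx1 fell, with a log2 fold change of -0.62 (SE 0.11, adjusted p = 0.00211). At 24 hpi cabp5a rose by 0.56 (SE 0.13, adjusted p = 0.0112) and cabp5b by 0.64 (SE 0.11, adjusted p = 0.000927) on the log2 scale. The remaining members had log2 fold changes of -0.65 (SE 0.80) for grm6a, -0.18 (SE 0.13) for gnb3a, -0.06 (SE 0.14) for cabp2a, -0.02 (SE 0.14) for trpm1a, 0.10 (SE 0.20) for grm6b and 0.25 (SE 0.14) for prkcaa. Within the set of 14 libraries the 3 called members stayed called, at -0.55 for vsx1, 0.59 for cabp5a and 0.57 for cabp5b. The summed rod genes were also high, at 224900 to 296100 CPM at 24 hpi, against 108500 to 270500 CPM at 6 and 12 hpi, and rho had a log2 fold change of 0.48 (SE 0.16, adjusted p = 0.0737). Collections at different times cannot be told apart from time after injury.

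In the comparisons fixed within each kind of eye, fewer members passed by edgeR. Over the 3 times 1 of 9 members was called in injured eyes, cabp5b with an adjusted p of 0.0493 by edgeR, where 1.53% of all genes were called. That call was lost when any of 14 of the 18 libraries was left out. At an unadjusted p under 0.05 there were 3 members (vsx1, cabp5a and cabp5b) and 12.6% of all genes. DESeq2 called these 3 members over time in injured eyes, and 813 of all 25281 genes, including those without an adjusted p. In control eyes 0 of 9 were called, where 1.54% of all genes were, with 2 members (vsx1 and cabp5b) at an unadjusted p under 0.05 (12.0% of all genes) and the same 2 members called by DESeq2 (5.51% of the genes it gave an adjusted p). Between 24 and 6 hpi alone, cabp5b was the 1 member called in injured eyes, where 2.01% of all genes were, and no member was called in control eyes, where 1.84% were. The log2 fold change of cabp5b was 0.82 (SE 0.18, adjusted p = 0.0213) in injured eyes and 0.68 (SE 0.18, adjusted p = 0.0633) in control eyes. For vsx1 it was -0.63 (SE 0.18, adjusted p = 0.0931) in injured eyes and -0.69 (SE 0.18, adjusted p = 0.0647) in control eyes. For cabp5a it was 0.55 (SE 0.21, adjusted p = 0.233 by edgeR) in injured eyes and 0.37 (SE 0.21, adjusted p = 0.517 by edgeR) in control eyes.

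Ratios of the members that rose to the one that fell, chosen after these values were seen, restate the same calls per library and were not tested. The RPKM ratio of cabp5a to vsx1 was 11.2 to 17.2 in the 6 libraries of 24 hpi, against 5.05 to 7.58 in the 12 earlier libraries. The ratio of cabp5b to vsx1 was 2.85 to 4.39 at 24 hpi, against 1.17 to 1.92 earlier. Neither ratio depends on a library's total count or its TMM factor. At 24 hpi the cabp5a to vsx1 ratio was 12.0 to 17.2 in injured eyes and 11.2 to 14.8 in control eyes, which overlapped.

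**Figure D4:**
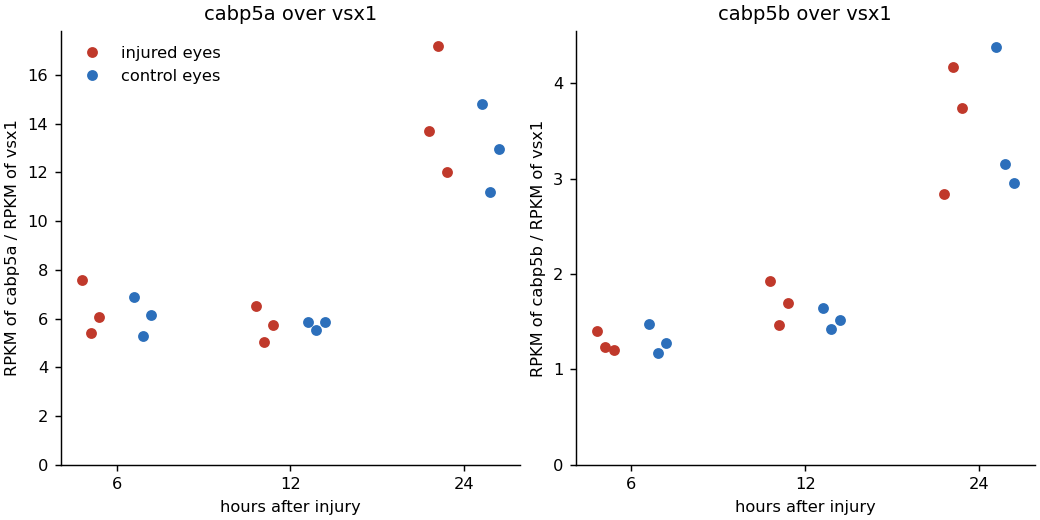
RPKM of cabp5a (left) and cabp5b (right) divided by the RPKM of vsx1 in each library, by time after injury, injured eyes left and control eyes right. All 6 libraries of 24 hpi lie above all 12 earlier ones in both panels, at 11.2 to 17.2 against 5.05 to 7.58 and at 2.85 to 4.39 against 1.17 to 1.92.

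Wider lists put the members beside their pathway: 18 genes of the ON bipolar cascade, 9 relatives of the calcium-binding protein and protein kinase C genes, and 17 bipolar cell transcription factor and OFF receptor genes. Of these, 17, 9 and 16 passed the filter on low counts. In the mean injury effect 0 genes were called in each list by edgeR. At an unadjusted p under 0.05 they held 9, 1 and 5 genes, where the share of all genes was 12.6%. The 9 cascade genes went both ways, 5 lower and 4 higher in injured eyes, and the 1 and the 5 genes were all lower. Over all genes, 6.16% were lower at that threshold. The 4 higher ones were gnb3b at 0.43, lrit3a at 0.42, trpm1b at 0.38 and gnb5b at 0.25 on the log2 scale, none of which was called. The part of rod or cone RNA in these 4 was not tested. The median log2 fold changes of the lists for the mean effect, in the same order, were -0.25, -0.33 and -0.14. One of the 5 lower ones, named after its values were seen, was rgs11, a regulator of G protein signalling that acts on the mGluR6 cascade in mouse ON bipolar cells. Its mean effect was -0.63 (SE 0.13, adjusted p = 0.12 by edgeR), with 40.1 ± 6.57 CPM in injured eyes and 89.1 ± 15.01 CPM in control eyes at 24 hpi (SD, n = 3 each).

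Between 24 hpi and the earlier times, 5 of 16 transcription factor and OFF receptor genes were called, and all 5 were lower at 24 hpi, where 4.44% of all genes were called lower. They were named after their values were seen. The basic helix-loop-helix genes bhlhe22 and bhlhe23 fell by 0.99 (SE 0.16) and 0.73 (SE 0.12) on the log2 scale. The LIM homeobox gene lhx4 fell by 0.84 (SE 0.13), the zinc finger gene prdm8b by 0.95 (SE 0.14) and the Iroquois homeobox gene irx6a by 1.07 (SE 0.25). Each of these genes is known in mouse as a regulator of some bipolar cell types or of their precursors. With group means removed, the Pearson r with the mean of the rod genes was -0.500 for bhlhe22 and 0.109 for bhlhe23. It was 0.0477 for lhx4, -0.330 for prdm8b and 0.181 for irx6a. With the members' mean (without grm6a) the r was 0.202, 0.916, 0.581, 0.750 and 0.0444 in that order. The part of the rod RNA in these falls was not tested. The kainate receptor gene grik1a, an OFF bipolar receptor subunit, was at -0.58 (SE 0.19, adjusted p = 0.0681 by edgeR) and was not called. In this list 14 of 16 estimates lay below 0, the median was -0.61, and the median of all genes was -0.02.

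In the cascade list 2 genes fell and 4 rose at 24 hpi, of 17. The fallen genes were gnb3b at -0.83 (SE 0.20) and rgs11 at -0.63 (SE 0.14), and the risen ones lrit3a at 0.97 (SE 0.11), trpm1b at 0.57 (SE 0.13), rgs9bp at 0.52 (SE 0.15) and gnb5b at 0.38 (SE 0.11). The share of all genes called higher was 4.35%. In the contrast of 24 minus 12 hpi, rgs11 differed by 0.00786 (SE 0.23) in control eyes. In injured eyes that difference was -1.12 (SE 0.23, adjusted p = 0.0256 by edgeR). The joint test of whether the injury effect differed between times called 0 of the 17 cascade genes, rgs11 among them, and 0% of all genes by edgeR. Control eyes averaged 125.5 ± 22.55 CPM of rgs11 at 6 hpi, 88.6 ± 11.71 CPM at 12 hpi and 89.1 ± 15.01 CPM at 24 hpi. The means in injured eyes were 76.3 ± 23.33, 86.9 ± 23.01 and 40.1 ± 6.57 CPM at those times (SD, n = 3 each). The calls for rgs9bp and gnb5b were lost when any of 12 and any of 10 of the 18 libraries was left out, and both were lost with the sheet set as a covariate. Within the set of 14 the calls for all 5 genes other than lrit3a were lost, while their log2 fold changes there were -0.85 for gnb3b, -0.55 for rgs11, 0.61 for trpm1b, 0.56 for rgs9bp and 0.40 for gnb5b. Without control library 1 or control library 2 of 24 hpi the adjusted p of gnb3b was 0.0541 or 0.0567 by edgeR. Some of these genes are not limited to bipolar cells: the products of rgs9bp and gnb5b also act in photoreceptors. With group means removed, rgs9bp, gnb5b, trpm1b and lrit3a had a Pearson r of 0.913, 0.950, 0.834 and 0.787 with the mean of the rod genes over the 18 libraries. With the mean of 8 members (without grm6a) their r was 0.152, -0.165, 0.159 and -0.165. These are the 4 genes that rose. The fallen genes rgs11 and gnb3b had an r of -0.638 and 0.0182 with the mean of the rod genes. With the mean of 8 members their r was 0.307 and -0.272. The median CPM of gnb3b at 6, 12 and 24 hpi was 549, 656 and 303 in injured eyes and 253, 552 and 197 in control eyes. The summed level of 23 cone genes had medians of 14930, 11130 and 8115 CPM in injured eyes at those times. In control eyes they were 5642, 15710 and 7621 CPM. The part of the rod or cone RNA in these rises and falls was not tested.

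Among the relatives 2 of 9 genes fell at 24 hpi and none rose. The paralog of cabp2a, cabp2b, fell by 2.49 (SE 0.17, adjusted p = 1.21e-07 by edgeR), a fold change of 0.178. It had 12.4 ± 3.18 CPM in injured eyes and 10.7 ± 1.09 CPM in control eyes at 24 hpi. At 12 hpi it had 57.9 ± 8.85 CPM in injured eyes and 71.9 ± 22.4 CPM in control eyes, and at 6 hpi 59.6 ± 11.4 CPM in injured eyes and 69.9 ± 17.95 CPM in control eyes (SD, n = 3 each). Its partner cabp2a was at -0.06 (SE 0.14), and the RPKM ratio of cabp2a to cabp2b was 72.0 to 187 at 24 hpi, against 16.3 to 36.4 earlier. The other was the kinase gene prkcbb at -0.88 (SE 0.23), whose call was lost within the set of 14 and without injured library 3, control library 1 or control library 2 of 24 hpi.

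**Figure D5:**
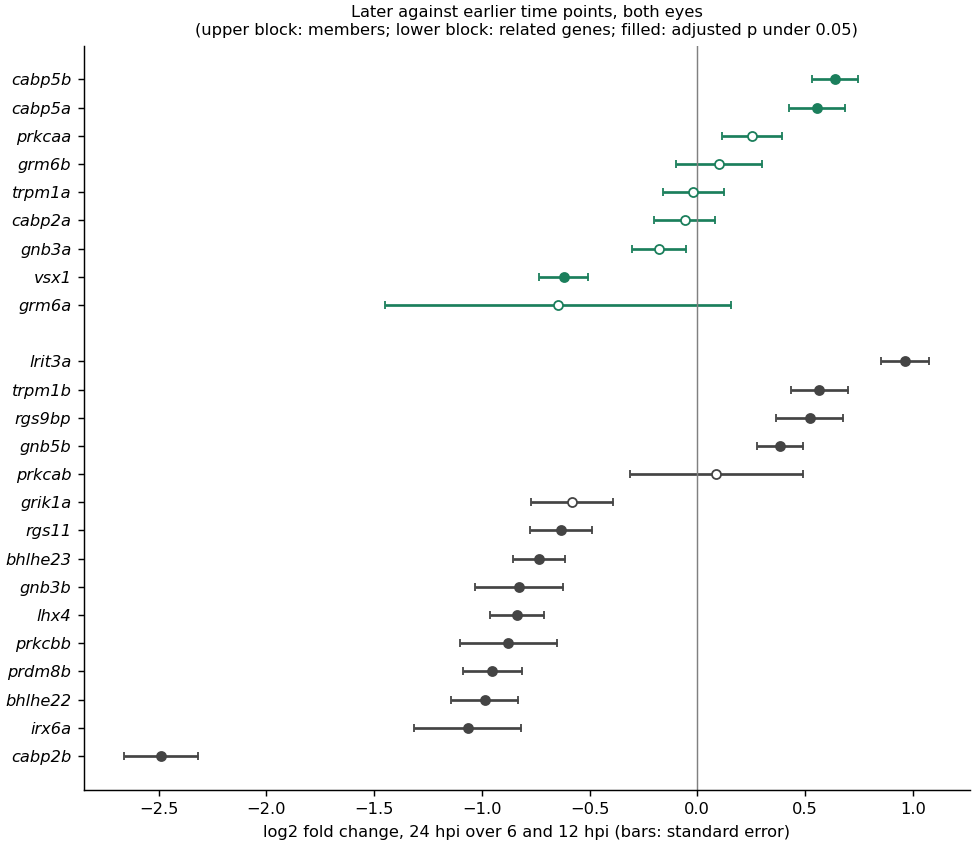
Log2 fold change of 24 hpi over 6 and 12 hpi in both kinds of eye, with standard errors, for the 9 members (upper block) and for related genes (lower block). Filled points had an adjusted p under 0.05 by edgeR. Members run from 0.64 for cabp5b to -0.65 for grm6a, and cabp2b stands lowest at -2.49.

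Zebrafish carry duplicate copies of many of these genes, and the copies were present at unequal levels. On the RPKM scale cabp5a was 3.21 to 5.39 times cabp5b over the 18 libraries, and prkcaa 9.90 to 61.4 times prkcab. The receptor gene grm6b was above grm6a in 18 of 18 libraries. For the channel and the G protein subunit the listed member was the lower copy: trpm1b was 2.12 to 9.59 times trpm1a and gnb3b 1.34 to 9.36 times gnb3a. The gnb3b to gnb3a ratio was 4.71 to 5.82 in injured eyes and 1.96 to 2.02 in control eyes at 6 hpi, without overlap. At 12 hpi it was 3.62 to 9.36 in injured eyes and 3.62 to 6.55 in control eyes, and at 24 hpi 1.34 to 4.50 in injured eyes and 1.77 to 5.05 in control eyes. At 6 hpi gnb3b itself had 532.9 to 557.5 CPM in injured eyes and 191.1 to 276.3 CPM in control eyes, while gnb3a overlapped. Over all genes, 6.13% were higher in injured eyes at 6 hpi without overlap. The summed level of 23 cone genes (none at 0 throughout a group) also separated at 6 hpi. It was 13210 to 17740 CPM in injured eyes and 5626 to 6331 CPM in control eyes. The part of cone RNA in the gnb3b to gnb3a ratio was not tested. Reads shared between close copies could be assigned to either, and whether strand was used in counting is not given in the sources used here, so values of paralogs and of genes with overlapping neighbours are uncertain to that degree.

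Apart from grm6a and grm6b, the members went up and down together from library to library. With group means removed, the 28 pairs among the 8 members other than grm6a had a Pearson r of log2 CPM between -0.165 and 0.921 over 18 libraries. Their median was 0.668, and 27 of the 28 were above 0. The highest was prkcaa with trpm1a, and the lowest was grm6b with cabp5b. Among these pairs grm6b reached at most 0.439, with vsx1, and had an r of 0.0402 with cabp5a. The pair cabp5a and cabp5b had an r of 0.833. Of the 8 pairs with grm6a, 1 was above 0, that with grm6b at 0.424. These correlations describe libraries that share depth, scaling and sort, and carry no test. No count over pairs of other genes of like level is given beside them.

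With grm6a left out, the mean of the other 8 members gave a profile that most of the bipolar transcription factor genes followed. Most ganglion cell genes did not follow it. Leaving grm6a out of this mean was chosen after the values were seen, and the sign of r for isl2b depends on it. With group means removed, grm6a itself had an r of 0.629 with the mean of the ganglion cell genes. The contrast with these genes is therefore partly set by that choice. Of 13 transcription factor and OFF receptor genes with a mean log2 CPM of at least 3, 12 had an r above 0 with the profile. The median of the 13 was 0.651, where 54.1% of 8766 genes were above 0. The highest in that list was bhlhe23 at 0.916. Of 17 ganglion cell genes 2 were above 0, with a median of -0.399, and isl2b was at -0.423. The 16 rod genes had a median of 0.00484, and 9 were above 0. Other lists were also mostly below 0. Above 0 were 1 of 10 Müller glia genes (median -0.146), 3 of 8 amacrine genes (-0.154) and 7 of 20 cone genes (-0.0738). In the cascade list lrit1a at 0.838 and nyx at 0.628 were the highest of 13, and the median was -0.165. The 6 genes most like the profile were si:ch73-256g18.2 (0.968), nexn (0.962), waslb (0.942), sema3fa (0.941), vamp1 (0.938) and nrn1lb (0.937). With grm6a kept in the mean, as the rule was first written, the 6 were chst1, cdr2l, anp32b, wapla, fam184b and gapvd1, with r between 0.829 and 0.928. In that mean isl2b had an r of 0.226, rho -0.378 and grik1a 0.206, against -0.423, 0.0588 and 0.651 without grm6a. The list counts above are for the mean without grm6a only.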

How the data were processed

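RNA of sorted cells was amplified with a SMART-Seq HT kit and made into Nextera XT libraries, per the labels. The authors deposited read counts per gene for 18 libraries in 3 tables, headed as total counts, together with RPKM values. By its name RPKM divides by gene length and read number, and the column headers give no further detail. The deposited log2 fold changes and adjusted p-values are the authors' own, from a model not given in the sources used here. Build GRCz11 is named in the submitters' processing notes. The aligner is not given in the sources used here.

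RPKM served to compare levels between genes. Counts were tested with edgeR 4.0.16 (R 4.3.3, TMM factors, quasi-likelihood test) in a model of 6 groups over 18 libraries, after filterByExpr at a minimum count of 10 had kept 17527 genes. P-values were adjusted over all of them by the Benjamini-Hochberg method, and 0.05 was the threshold. Standard errors (SE) were derived as the absolute log2 fold change divided by the square root of the F statistic of the quasi-likelihood test. Correlations used log2 CPM with a prior count of 2. DESeq2 1.42.0 and other settings were alternatives, and the test was tried on simulated data first. No per-sample count column was left without a sample (0 unmapped). Total counts were 15490375 to 28329194 per library. The amplified reads had no molecular identifiers, and limits set from counts leave out amplification error. No 2 libraries of a group agreed within sampling noise: in the 18 pairs the chi-square divided by the number of genes was 27.7 to 124. The comparison of 24 hpi with the earlier times and the fit on the set of 14 libraries were chosen after seeing the data.

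All 9 members, isl2b, rho, gnb3b, grik1a, trpm1b, prkcab and cabp2b were named by rule, with any listed gene called for injury (there were 0) and the 6 genes most like the members' mean. A further gene that the rule names is not reported here. Other genes were named after their values were seen. The members and gene lists were chosen with earlier results of these data known. Of the lists of 20, 10 and 22 genes for the cascade, the relatives and the transcription factors, 18, 9 and 17 were in the tables. Markers of amacrine cells, horizontal cells, Müller glia, macrophages and pigment epithelium were also summed, at 137 to 778, 54.6 to 174, 2095 to 4015, 0.559 to 137 and 1.58 to 56.5 CPM per library.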

Additional observations from a re-analysis of the deposited data

How the results depend on the processing

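The count of 0 members called for injury, at each time, for the mean effect and for the difference between times, held under each alternative run: size factors of DESeq2, library totals, no filter, DESeq2, the libraries of a time point alone, the sheet set as a covariate, the set of 14 libraries, the replicate block and each library left out. Over all genes the mean injury effect called 0 genes by edgeR, 2 without the filter and 244 by DESeq2; at 24 hpi edgeR called 0 genes, 2 without the filter, 50 on the libraries of that time alone and DESeq2 198, at 6 hpi 0, 6 on those libraries and 76 by DESeq2, and at 12 hpi 0, 7 by DESeq2 and 1 with the replicate block. Over time, edgeR called 270 genes in controls (96 in the set of 14, 765 by DESeq2) and 269 in injured eyes (104 in the set of 14, 813 by DESeq2, 183 with the sheet set), and 1540 at 24 hpi against the earlier times (796 in the set of 14). The difference of the injury effect between times gave 0 genes by edgeR, 1 with the replicate block and 14 by DESeq2. With a library left out, genes called were 0 to 14 for the mean injury effect (14 without injured library 2 of 6 hpi, 11 without injured library 3 of 12 hpi), 0 to 7 at 24 hpi (7 without injured library 1 of 12 hpi) and 0 to 1 at 6 hpi. Over time in controls they were 128 to 327, with 128 and 145 without control libraries 2 and 1 of 24 hpi. In injured eyes they were 127 to 338, with 151, 127 and 129 without injured libraries 1, 2 and 3 of 24 hpi and 172 without injured library 3 of 6 hpi. The 3 members called at 24 hpi against the earlier times stayed called under each alternative, and without injured library 3 of 24 hpi prkcaa was also called (0.39, adjusted p = 0.0496 by edgeR). Over time in controls 2 members were called by DESeq2 and 1 with the sheet set as a covariate (0 to 1 with a library left out); in injured eyes 0 on library totals, 3 by DESeq2 and 2 with the sheet set (0 to 1 with a library left out). Library totals moved the median of all genes by -0.20 at 6 hpi, -0.12 at 24 hpi, -0.11 for the mean effect and -0.14 at 24 hpi against the earlier times. With the replicate block, prkcaa at 24 hpi turned to -0.0275, and no other sign or call of a member changed; the time comparisons were not run with the block. The labels do not say whether injured and control libraries of the same number came from the same fish. With group means removed, their correlations ran from -0.068 to 0.13, against -0.17 to 0.156 for different numbers. Of the same-number pairs 2 of 9 lay above 0.1, and 9 of 18 libraries correlated best with their own number. With 3 libraries per group these values cannot decide whether the libraries were paired. The signs that turned all belonged to values with an adjusted p above 0.6. For prkcaa at 24 hpi these were -0.10 on library totals and -0.0194 with the sheet set. With the sheet set, grm6a at 6 hpi was 0.19 and trpm1a at 24 hpi against the earlier times 0.0321. On library totals grm6b in that comparison was -0.0533. Within the set of 14, which leaves 1 control library at 6 hpi that is assumed to vary like the others, values were 1.18 for grm6a and 0.15 for grm6b at 6 hpi; 0.11 for grm6b, 0.15 for cabp5a, 0.27 for cabp2a, 0.0483 for trpm1a and 0.27 for gnb3a at 24 hpi; 0.15 for grm6b in the mean effect; and 0.00371 for cabp2a and 0.0850 for trpm1a at 24 hpi against the earlier times. With a library left out, ranges that crossed 0 were at 6 hpi -1.64 to 0.51 for grm6a, -0.33 to 0.0614 for cabp5a and -0.42 to 0.00879 for cabp2a; at 12 hpi -0.49 to 0.97 for grm6a, -0.22 to 0.0900 for prkcaa, -0.23 to 0.20 for trpm1a and -0.28 to 0.0360 for gnb3a; at 24 hpi -0.27 to 0.19 for grm6b, -0.12 to 0.30 for prkcaa, -0.14 to 0.20 for cabp5a, -0.16 to 0.23 for cabp2a, -0.30 to 0.11 for trpm1a and -0.20 to 0.16 for gnb3a; in the mean effect -0.11 to 0.0826 for grm6b; and against the earlier times -0.0168 to 0.21 for grm6b, -0.13 to 0.0639 for cabp2a and -0.12 to 0.0909 for trpm1a. The causes were not tested. The summed difference of -790 CPM ranged from -1013 to -412 CPM with a library left out. Depth limits mainly grm6a, with 0 to 203 counts.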
